A study of Mus musculus with 10 samples.

Results

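The response to 17β-estradiol (E2) was compared between 2 genotypes of ovariectomized (OVX) mice, as the difference of the E2 response in Het-Met mice minus the E2 response in WT mice, which is the interaction of genotype and treatment. All 10 libraries of the mouse data that were analysed here entered this comparison, and 15081 of 24421 gene symbols were tested because their mean over the libraries was at least 0.5 counts per 1000000 reads on genes (CPM). RNA came from the ventral hippocampus of young adult female C57BL/6 mice that were WT or heterozygous for the Bdnf Val66Met knock-in allele (Het-Met), with every animal ovariectomized and left to recover for 2 weeks. For the next 6 weeks the drinking water held 0.1% ethanol, either with E2 at 300 nM (about 0.7 ug each day) or without it (vehicle). WT mice gave 2 vehicle and 2 E2 libraries and Het-Met mice 3 of each, and every library held the pooled RNA of 2 animals. The knock-in allele is present in every cell of these animals.

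Estradiol enters cells and binds nuclear receptors that act on transcription, and it also signals at the membrane. BDNF is a neurotrophin released by neurons, and its Met variant is known for reduced release upon neuronal activity. The choroid plexus, an epithelium that hangs in the ventricles, secretes cerebrospinal fluid and carrier proteins into it, and the ependyma beside it lines the ventricles with cells that beat motile cilia. Both tissues lie next to the hippocampus.

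The libraries held 19820184 to 23267410 reads on genes, so that 1 read was worth 0.0430 to 0.0505 CPM and the limit that a count of 0 allows (3 reads) lay at 0.129 to 0.151 CPM. Glutamatergic neuron markers summed to 17933 to 20586 CPM in every library, and CA1 pyramidal cell markers to 718 to 854 CPM. The choroid plexus list of 45 genes varied more, from 470 to 3859 CPM, and a pituitary list of 9 genes from 2.42 to 210 CPM. WT vehicle replicate 1 had the lowest choroid plexus sum of all libraries (470 CPM, against 1518 CPM in replicate 3), and Het-Met E2 replicate 1 had the highest of its group (2092 CPM, against 797 and 625 CPM). The calls and the choroid plexus and ependymal results are given with and without them.

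The interaction was called for 11 of the 15081 genes tested (0.0729%), at a limma adjusted p under 0.05 and a difference of responses above 1.3-fold. Of these, 8 had a lower E2 response in Het-Met than in WT mice (0.053%) and 3 a higher one (0.0199%). In all 8 the estimate of the E2 response was positive in WT and negative in Het-Met mice, and in all 3 it was negative in WT and positive in Het-Met mice. At an unadjusted p under 0.05 there were 818 genes (5.42%), of which 395 had a lower response (2.62%) and 423 a higher one (2.8%). A cut at 0.05 takes about this share of genes even where none has an interaction. The 818 are therefore the background for the lists and not a set of responding genes. All values of an interaction or response below are differences on the log2(CPM + 0.5) scale, which understates the change of low genes, and errors are standard errors (SE) from limma over the 10 libraries. The p-values measure the spread between pools of animals.

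**Figure D1:**
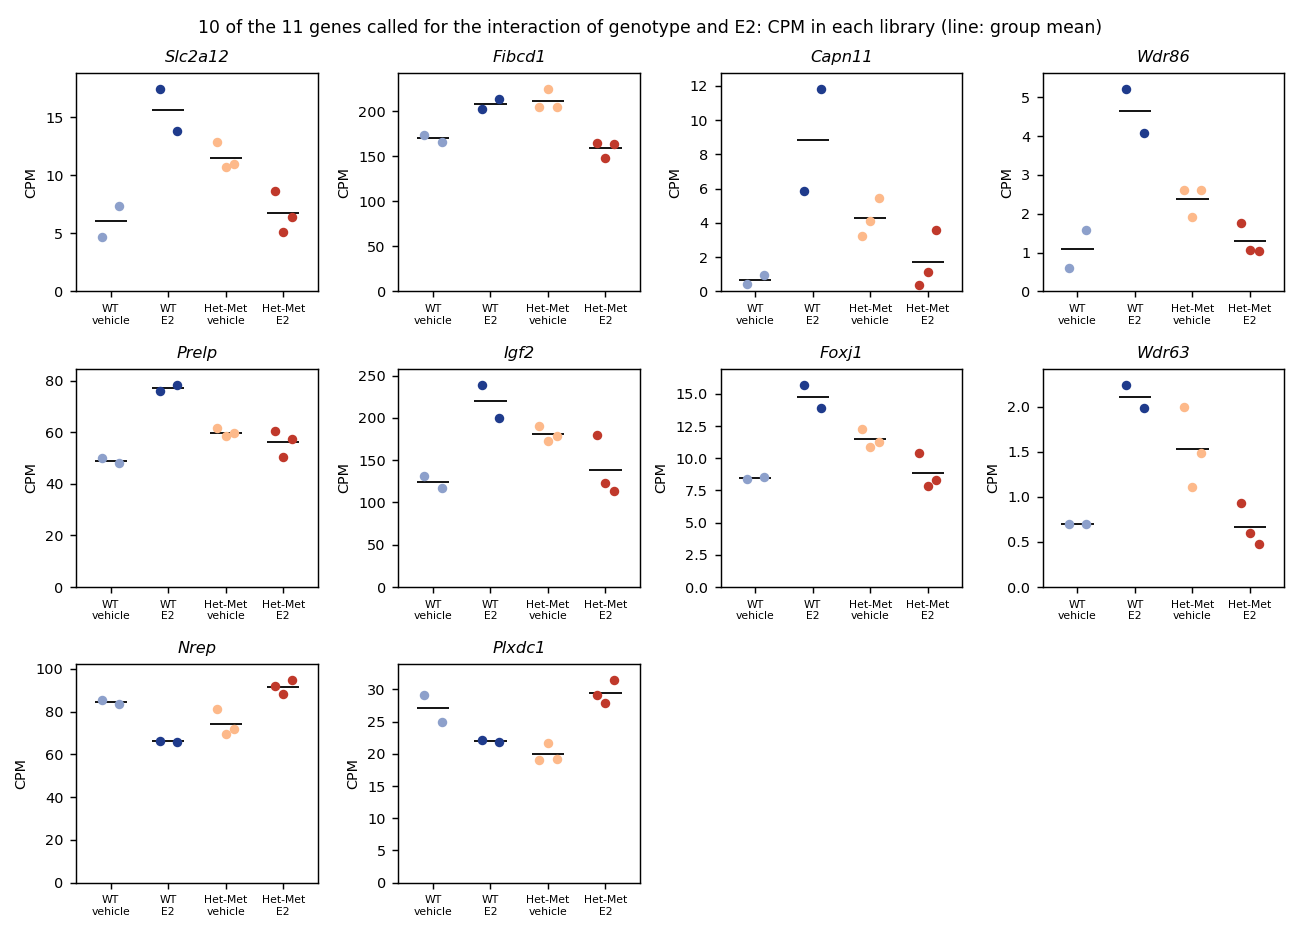
CPM of 10 of the 11 genes called for the interaction, in each library (points) and as group means (lines), with WT vehicle, WT E2, Het-Met vehicle and Het-Met E2 from left to right and CPM on axes that start at 0. The upper and middle rows show the 8 genes whose response was lower in Het-Met mice, with the highest mean in E2-treated WT libraries for 7 of them, and the lower row 2 genes whose response was higher.

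Slc2a12, which encodes the glucose transporter GLUT12 (GRCm38 chr10:22644990-22703880), had the smallest p of all genes. Its level was 4.72 and 7.38 CPM in vehicle-treated WT, 17.4 and 13.8 in E2-treated WT, 12.9, 10.7 and 11 in vehicle-treated Het-Met, and 8.61, 5.16 and 6.45 in E2-treated Het-Met libraries. E2 libraries lay above vehicle libraries in WT and below them in Het-Met mice, without overlap in either genotype. The E2 response was 1.31 ± 0.22 in WT and -0.76 ± 0.18 in Het-Met mice, an interaction of -2.07 ± 0.29 (limma adjusted p = 0.0333).

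Capn11, a member of the calpain family of calcium-dependent proteases (chr17:45630191-45659709), had the lowest interaction of the called genes, -4.31 ± 0.65 (limma adjusted p = 0.0333). The libraries held 0.416 and 0.942 CPM in vehicle-treated WT, 5.88 and 11.8 in E2-treated WT, 3.23, 4.14 and 5.43 in vehicle-treated Het-Met, and 0.391, 1.15 and 3.6 in E2-treated Het-Met libraries. Both E2-treated WT libraries lay above both vehicle-treated ones, whereas the Het-Met E2 libraries ranged from below 1 CPM to within the vehicle range. Wdr86, which encodes a protein with WD repeats (chr5:24696900-24730698), was at 0.601 and 1.59 CPM in vehicle-treated WT, 5.2 and 4.08 in E2-treated WT, 2.61, 1.92 and 2.6 in vehicle-treated Het-Met, and 1.76, 1.06 and 1.04 in E2-treated Het-Met libraries. The 2 treatments did not overlap in either genotype, and the interaction was -2.45 ± 0.37 (limma adjusted p = 0.0333).

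The 250 bases before the RefSeq start of 2 of these genes are shown because they hold 1 of the 5 short motifs searched. In Capn11 (GRCm38.p6 chr17:45659310-45659559, minus strand) the capitals mark letters of the X-box that RFX factors of ciliated cells bind, GTTGCC or its reverse complement, which 11.8% of 27025 promoter windows held. In Wdr86 (chr5:24730681-24730930, minus strand) they mark the hexamer AGGTCA that nuclear receptors bind, held by 15.8% of windows.
Capn11: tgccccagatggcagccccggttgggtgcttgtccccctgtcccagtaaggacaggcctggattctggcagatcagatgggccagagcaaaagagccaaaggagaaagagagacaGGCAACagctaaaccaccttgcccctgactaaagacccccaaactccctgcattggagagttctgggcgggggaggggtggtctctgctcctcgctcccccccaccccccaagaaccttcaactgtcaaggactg
Wdr86: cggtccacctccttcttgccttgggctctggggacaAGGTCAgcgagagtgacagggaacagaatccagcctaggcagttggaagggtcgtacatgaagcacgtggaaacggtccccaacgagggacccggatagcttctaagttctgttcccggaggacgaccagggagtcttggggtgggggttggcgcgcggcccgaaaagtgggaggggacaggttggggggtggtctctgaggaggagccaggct
A full palindromic estrogen response element stood in 0.0666% of all windows, in 0 of the 7 called genes with a window, in 0 of 34 choroid plexus genes and in 0 of 24 ependymal genes. The element is so rare that a count of 0 in sets this small cannot set them apart from all windows. Motif matches are of letters only, on either strand, and were not tested for binding.

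Igf2, the gene of insulin-like growth factor 2 (chr7:142650768-142666816), stood at 131 and 117 CPM in vehicle-treated WT, 239 and 200 in E2-treated WT, 191, 173 and 179 in vehicle-treated Het-Met, and 180, 123 and 113 in E2-treated Het-Met libraries. Its E2 and vehicle libraries were apart in WT mice and overlapped in Het-Met mice, where replicate 1 stood above the other E2 libraries. The interaction was -1.23 ± 0.20 (limma adjusted p = 0.0454). Prelp, an extracellular matrix proteoglycan (chr1:133910304-133930102), measured 49.9 and 48.1 CPM in vehicle-treated WT, 75.9 and 78.3 in E2-treated WT, 61.5, 58.4 and 59.5 in vehicle-treated Het-Met, and 60.6, 50.4 and 57.5 in E2-treated Het-Met libraries. The WT groups were apart by more than 20 CPM and the Het-Met groups overlapped, with a response of 0.65 ± 0.09 in WT and -0.09 ± 0.07 in Het-Met mice and an interaction of -0.74 ± 0.12 (limma adjusted p = 0.0393).

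Fibcd1 was the called gene of the CA1 list (chr2:31813290-31846964), a receptor protein with a fibrinogen-like domain. Its libraries held 174 and 166 CPM in vehicle-treated WT, 202 and 213 in E2-treated WT, 204, 224 and 204 in vehicle-treated Het-Met, and 165, 148 and 164 in E2-treated Het-Met libraries. E2 libraries lay above vehicle libraries in WT and below them in Het-Met mice, with responses of 0.28 ± 0.08 and -0.41 ± 0.06. The interaction was -0.69 ± 0.10 (limma adjusted p = 0.0333). Of the 8 CA1 genes tested, 1 had a lower response (Fibcd1) and 1 a higher one at an unadjusted p under 0.05. That was 12.5% each way, against 2.62% and 2.8% of all genes.

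Among the called genes were 2 of motile cilia. Foxj1, the transcription factor that switches on the motile cilium program (chr11:116330704-116335499), was at 8.42 and 8.52 CPM in vehicle-treated WT, 15.7 and 13.9 in E2-treated WT, 12.3, 10.9 and 11.3 in vehicle-treated Het-Met, and 10.4, 7.88 and 8.35 in E2-treated Het-Met libraries. The treatments did not overlap in either genotype, and the interaction was -1.13 ± 0.19 (limma adjusted p = 0.0454). Wdr63, a subunit of the inner dynein arms of cilia (chr3:146040526-146108100), was at 0.694 and 0.694 CPM in vehicle-treated WT, 2.24 and 1.98 in E2-treated WT, 1.99, 1.11 and 1.48 in vehicle-treated Het-Met, and 0.93, 0.599 and 0.474 in E2-treated Het-Met libraries. It was again high in E2-treated WT and low in E2-treated Het-Met libraries without overlap, with an interaction of -1.92 ± 0.33 (limma adjusted p = 0.0454).

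Of the called genes with a higher response in Het-Met mice, 2 are described here. Nrep, a neuronal protein linked to nerve regeneration, measured 85.3 and 83.4 CPM in vehicle-treated WT, 66.3 and 65.8 in E2-treated WT, 81.2, 69.5 and 72.1 in vehicle-treated Het-Met, and 91.8, 88.4 and 94.6 in E2-treated Het-Met libraries. Plxdc1, a plexin domain receptor known from blood vessels (chr11:97923237-97986669), measured 29.2 and 25 CPM in vehicle-treated WT, 22.1 and 21.8 in E2-treated WT, 19.1, 21.7 and 19.2 in vehicle-treated Het-Met, and 29.2, 27.9 and 31.4 in E2-treated Het-Met libraries. For both genes E2 libraries were below vehicle libraries in WT and above them in Het-Met mice, with interactions of 0.65 ± 0.11 for Nrep and 0.84 ± 0.14 for Plxdc1 (limma adjusted p = 0.0454 for each). Over all genes tested, E2 libraries were all below vehicle in WT and all above in Het-Met mice for 165 genes (1.09%), and the reverse held for 142 genes (0.942%).

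These calls rested on all 10 libraries together. Leaving out 1 library left 0 or 1 of the 11 genes called for every library except WT vehicle replicate 3 and Het-Met E2 replicate 1. Without WT vehicle replicate 3 the number of calls was 46 (8 of the 11 among them) and without Het-Met E2 replicate 1 it was 71 (all 11 among them). The direction of the 11 interactions held in every such fit, with ranges of -2.37 to -1.77 for Slc2a12, -4.89 to -3.79 for Capn11 and -0.73 to -0.64 for Fibcd1. edgeR on the recovered reads called 13 genes and DESeq2 called 38, both with all 11 among them.

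**Figure D2:**
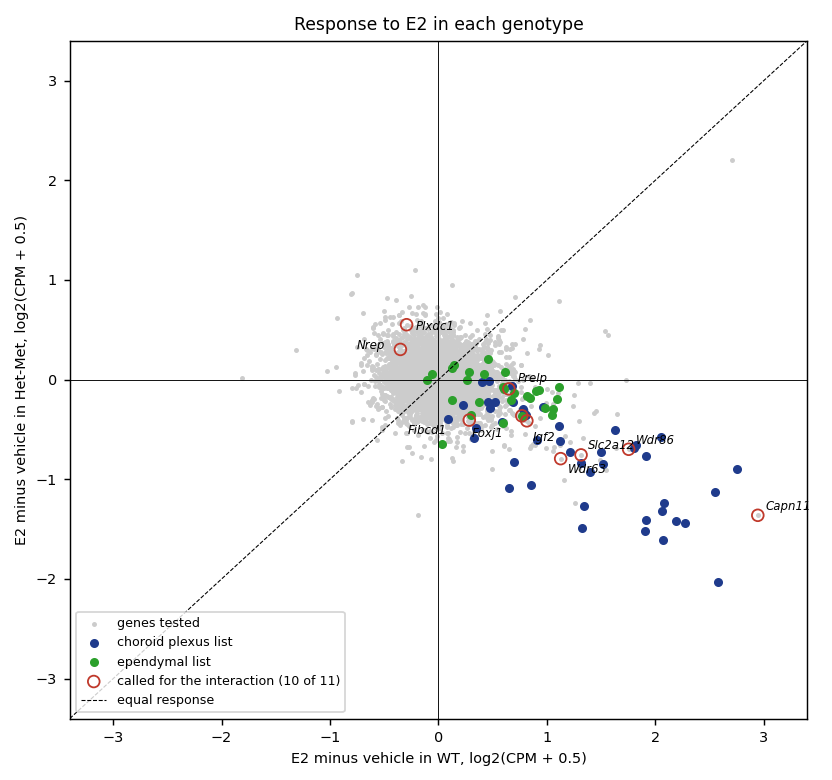
E2 response in WT (x axis) against E2 response in Het-Met mice (y axis), both on the log2(CPM + 0.5) scale, for the 15081 genes tested (grey), the choroid plexus list (blue), the ependymal list (green) and 10 of the 11 called genes (red rings, named), with the dashed line marking equal responses. Choroid plexus genes sit to the lower right, positive in WT and negative in Het-Met mice, with medians of 1.17 and -0.67.

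The genes with the lowest interactions were largely those of the choroid plexus epithelium. Among the 248 genes with an unadjusted p under 0.01 and a mean of at least 1 CPM, 142 had a lower response, and 27 of the 50 lowest interactions belonged to the choroid plexus list. Of 30 genes with an interaction beyond 4-fold in that direction at an unadjusted p under 0.05, 21 were on this list, whereas 0 genes went beyond 4-fold in the other direction. Of the 46 genes listed, 45 were in the data and 44 were tested, Mfrp being at 0 reads in every library. All 44 estimates were below 0, with a median of -1.93 (over all genes tested, 0.01) and a range of -4.61 to -0.43.

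At an unadjusted p under 0.05, 41 of the 44 had a lower response (93.2%, against 2.62% of all genes tested) and 0 a higher one. Markers of 1 tissue, here and in the lists below, can rise and fall together between libraries. The members are therefore not independent, and their number does not stand for replicates. The lists were also chosen with earlier results of these data known, so that these shares are descriptions and test nothing. With limma, 0 of the 44 were called after adjustment, the smallest adjusted p being 0.0507 for Kcnj13. edgeR called 0 and DESeq2 called 6, and limma called 1 with a pseudocount of 1 and 21 without WT vehicle replicate 3. The median E2 response was 1.17 in WT and -0.67 in Het-Met mice. Het-Met mice were higher than WT under vehicle (median 0.96) and lower under E2 (median -0.92). E2 libraries were all above vehicle libraries in WT mice for 42 of the 44 (15.6% of all genes), and all below them in Het-Met mice for 5 (5.11% of all genes).

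Leaving out either of the libraries that stood apart moved these values in opposite ways. Without WT vehicle replicate 1, 36 of 44 had a lower response with a median of -1.56, and without Het-Met E2 replicate 1, 42 of 44 with a median of -2.30, of which 30 were then called. All 44 estimates stayed below 0 in both fits and without WT vehicle replicate 3. Without WT vehicle replicate 1, 6 genes moved by over 1.5 times, Ttr from -4.61 to -3.04 among them. Without that library Folr1 was at -2.31, F5 at -2.53, Slc4a5 at -2.53, Kcne2 at -2.59, Kcnj13 at -2.68, Kl at -1.72, Clic6 at -1.96 and Otx2 at -1.87. Without Het-Met E2 replicate 1 these genes lay further from 0, at -5.39 for Ttr, -4.02 for Folr1, -3.84 for Kcnj13 and -2.78 for Otx2. In bulk tissue, fewer cells of a type and less RNA per cell cannot be told apart, and nor can a difference in how much choroid plexus was dissected with the hippocampus.

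**Figure D3:**
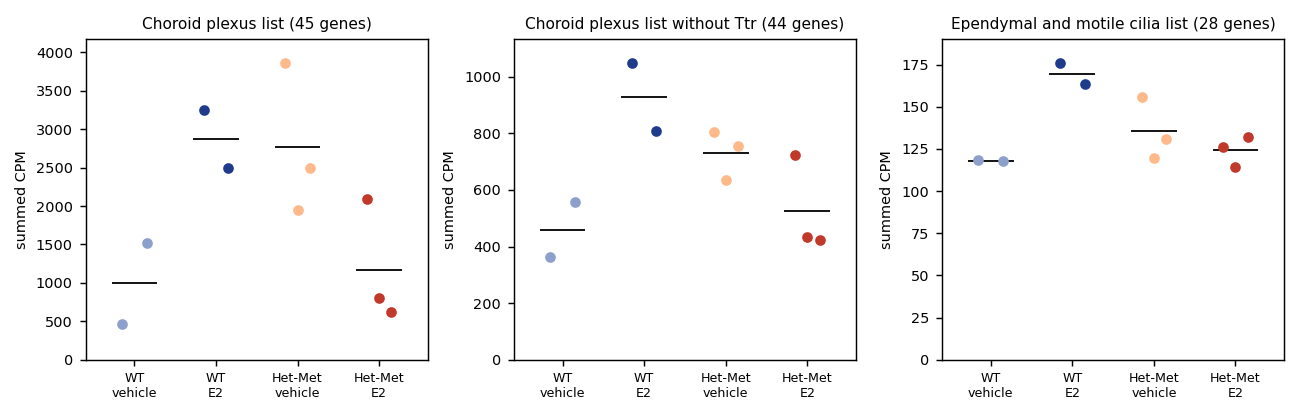
Summed CPM of the choroid plexus list (left), the same list without Ttr (middle) and the ependymal and motile cilia list (right) in each library (points) with group means (lines), on axes that start at 0. Group means of the choroid plexus list were 994, 2873, 2767 and 1172 CPM from WT vehicle to Het-Met E2, and those of the ependymal list 118, 170, 135 and 124 CPM.

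The lowest interaction of the list was that of a carrier protein. Ttr, which carries thyroid hormone and retinol in cerebrospinal fluid, was at 108 and 960 CPM in vehicle-treated WT, 2205 and 1687 in E2-treated WT, 3055, 1316 and 1734 in vehicle-treated Het-Met, and 1370, 362 and 204 in E2-treated Het-Met libraries. WT libraries of the 2 treatments were apart, and Het-Met E2 replicate 1 lay within the range of the vehicle libraries. The interaction was -4.61 ± 1.05 (95% interval -6.85 to -2.38, limma adjusted p = 0.128), and it was -3.04 without WT vehicle replicate 1 and -6.18 without replicate 3. All 7 genes of this role had a lower response at an unadjusted p under 0.05, with a median of -2.22, among them Sostdc1, a secreted inhibitor of BMP and Wnt signals, at -2.61 ± 0.58.

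Among surface receptors and enzymes, 7 of 7 had a lower response, with a median of -2.64. Folr1, the receptor that takes folate into cerebrospinal fluid, was at 1.02 and 6.19 CPM in vehicle-treated WT, 14 and 11.7 in E2-treated WT, 10.7, 7.87 and 10.2 in vehicle-treated Het-Met, and 9.25, 2.49 and 1.71 in E2-treated Het-Met libraries, and its interaction was -3.38 ± 0.77 (limma adjusted p = 0.128). Kl, encoding klotho, a coreceptor of fibroblast growth factors, was at 21.2 and 52.2 CPM in vehicle-treated WT, 112 and 82.8 in E2-treated WT, 76.9, 58.7 and 80.7 in vehicle-treated Het-Met, and 70.4, 34.8 and 25.2 in E2-treated Het-Met libraries, with an interaction of -2.36 ± 0.50 (limma adjusted p = 0.103). Treatments were apart in WT mice for both genes, and Het-Met E2 replicate 1 was within the range of the vehicle libraries. F5, coagulation factor V, a secreted clotting cofactor that was grouped here, had an interaction of -3.66 ± 0.81.

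Ion, water and solute transport had 12 of 12 genes with a lower response, with a median of -2.23. Kcnj13, an inwardly rectifying potassium channel of the apical membrane, was at 2.64 and 7.19 CPM in vehicle-treated WT, 24 and 17.1 in E2-treated WT, 20.5, 12.7 and 16.3 in vehicle-treated Het-Met, and 13.9, 4.98 and 3.98 in E2-treated Het-Met libraries. In WT mice E2 libraries were above vehicle ones, in Het-Met mice E2 replicate 1 lay within the vehicle range, and the interaction was -3.33 ± 0.58 (limma adjusted p = 0.0507). Clic6, an intracellular chloride channel protein, had -2.47 ± 0.44 (limma adjusted p = 0.0555), Kcne2, a potassium channel subunit, -3.68 ± 0.86, and Slc4a5, a sodium bicarbonate cotransporter, -3.68 ± 0.85. Aqp1, the water channel of the epithelium, had -3.32 ± 0.73.

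Barrier and cytoskeleton genes had lower responses in 8 of 10, with a median of -1.17. Cldn2, the claudin of leaky tight junctions, was at -3.61 ± 0.76, while for Cldn1 and Cldn3 the unadjusted p missed 0.05. All 3 transcription factors had a lower response, Otx2, which specifies choroid plexus, being at 1.57 and 4.36 CPM in vehicle-treated WT, 12.4 and 9.03 in E2-treated WT, 9.44, 5.45 and 6.45 in vehicle-treated Het-Met, and 6.41, 3.18 and 3.41 in E2-treated Het-Met libraries. WT treatments were apart and Het-Met ones overlapped, and the interaction was -2.49 ± 0.47 (limma adjusted p = 0.0673). Of 5 remaining genes 4 had a lower response, the exception being Cox8b.

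**Figure D4:**
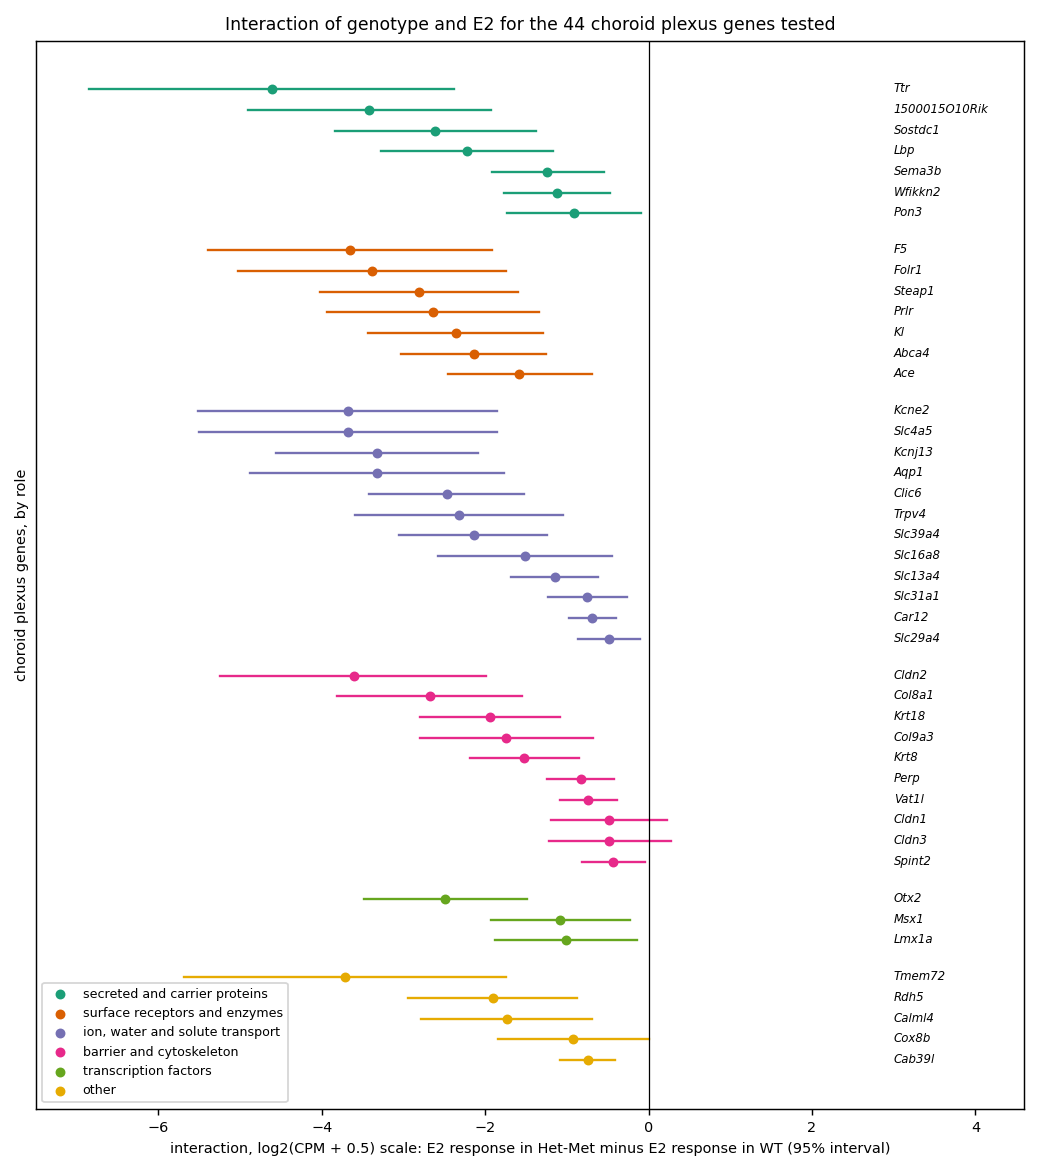
Interaction of genotype and E2 on the log2(CPM + 0.5) scale (x axis, points with 95% intervals from limma) for each of the 44 choroid plexus genes tested, grouped and coloured by role. All 44 points lie below 0, from -4.61 (Ttr) to -0.43, and the intervals of 41 do not reach 0.

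Ependymal and motile cilia genes went the same way with smaller values. Of 28 tested, 14 had a lower response at an unadjusted p under 0.05 (50% of the list, against 2.62% of all genes) and 0 a higher one, with 25 estimates below 0 and a median of -0.69. The median response was 0.60 in WT and -0.13 in Het-Met mice, and E2 libraries were all above vehicle ones in WT mice for 23 of 28 (15.6% of all genes). Without WT vehicle replicate 1, and likewise without Het-Met E2 replicate 1, 13 of the 28 had a lower response. Besides Foxj1, Rsph1, a radial spoke protein, was at 3.38 and 4.86 CPM in vehicle-treated WT, 8.61 and 9.2 in E2-treated WT, 8.63, 6.16 and 7.93 in vehicle-treated Het-Met, and 5.53, 5.26 and 6.59 in E2-treated Het-Met libraries. Its treatments were apart in WT mice and overlapped in Het-Met mice, with an interaction of -1.40 ± 0.25 (limma adjusted p = 0.0522). Dnah6, an axonemal dynein heavy chain, had -1.28 ± 0.25 (limma adjusted p = 0.0752) and Hydin, a central pair protein, -0.97 ± 0.21. Dnah5, another dynein heavy chain, was at 0.01 ± 0.20.

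Promoter letters of the ependymal list are shown for Dynlrb2, a dynein light chain with an interaction of -1.35 ± 0.37, as an example of the X-box letters that 10 of 24 ependymal genes with a window held (41.7%, against 11.8% of all windows and 5 of 34 choroid plexus genes). The window lies at GRCm38.p6 chr8:116504765-116505014 on the plus strand, with GTTGCC in capitals.
Dynlrb2: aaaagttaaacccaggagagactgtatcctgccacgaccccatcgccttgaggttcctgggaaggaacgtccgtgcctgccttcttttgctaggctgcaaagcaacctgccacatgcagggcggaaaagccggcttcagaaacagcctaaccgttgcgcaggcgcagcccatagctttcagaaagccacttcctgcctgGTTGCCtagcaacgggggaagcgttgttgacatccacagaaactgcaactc
The forkhead letters TGTTTAC stood in 5 of 24 ependymal windows (20.8%, against 3.54% of all) and 1 of 34 choroid plexus windows. The OTX letters TAATCC stood in 4 of 34 choroid plexus windows, Otx2 among them, against 7.21% of all. The matches were not tested further.

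Because choroid plexus genes moved with the interaction, the fit was repeated with their mean level as a covariate. With limma 0 genes were then called and 398 had an unadjusted p under 0.05. The covariate itself differed between the groups in the way of the interaction, which widens the errors of the interaction. The loss of calls therefore cannot show which genes depend on it. Nearer to 0 than without the covariate were Slc2a12 (-0.96), Wdr86 (-1.04), Wdr63 (-1.20), Igf2 (-0.62), Foxj1 (-0.69), Prelp (-0.62) and Plxdc1 (0.60). The interactions of Fibcd1 (-0.73), Nrep (0.70) and Capn11 (-5.82) were not. Ependymal genes with a lower response numbered 8 of 28.

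The other cell type lists are given as counts at an unadjusted p under 0.05, where the share over all genes was 2.62% for lower responses and 2.8% for higher ones. Meningeal fibroblast genes had 3 of 23 with a lower response (13%) and 0 higher, namely Pcolce, a procollagen processing protein (-0.99 ± 0.25), Ogn and Bgn, both matrix proteoglycans (-0.52 ± 0.16 and -0.48 ± 0.15). Mural cell genes had 2 of 14 lower (14.3%), the contractile genes Acta2 and Tagln (-0.64 ± 0.21 for each). Endothelial cells (1 lower and 1 higher of 19), astrocytes (1 and 1 of 23), microglia and macrophages (0 and 1 of 20), oligodendrocytes (0 and 1 of 20), oligodendrocyte precursors (0 of 9), interneurons (1 and 1 of 18) and glutamatergic neurons (0 and 1 of 16) had medians between -0.06 and 0.05. Among hippocampal fields, dentate gyrus had 1 of 14 lower and CA2 and CA3 had 1 of 10 lower (10%). Striatum genes had 1 lower, the dopamine signaling gene Ppp1r1b (-0.54 ± 0.16), and 1 higher of 7, with a median of -0.29. Thalamus and habenula genes had 2 of 13 with a higher response (15.4%, 0 lower) and a median of 0.29, among them Slc17a6, the vesicular glutamate transporter VGLUT2. Its level was 28.4 and 32.5 CPM in vehicle-treated WT, 24.7 and 22.3 in E2-treated WT, 21.4, 17.8 and 15.8 in vehicle-treated Het-Met, and 25.6, 31.4 and 29.9 in E2-treated Het-Met libraries. The treatments did not overlap in either genotype, and the interaction was 1.02 ± 0.18 (limma adjusted p = 0.0522).

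**Figure D5:**
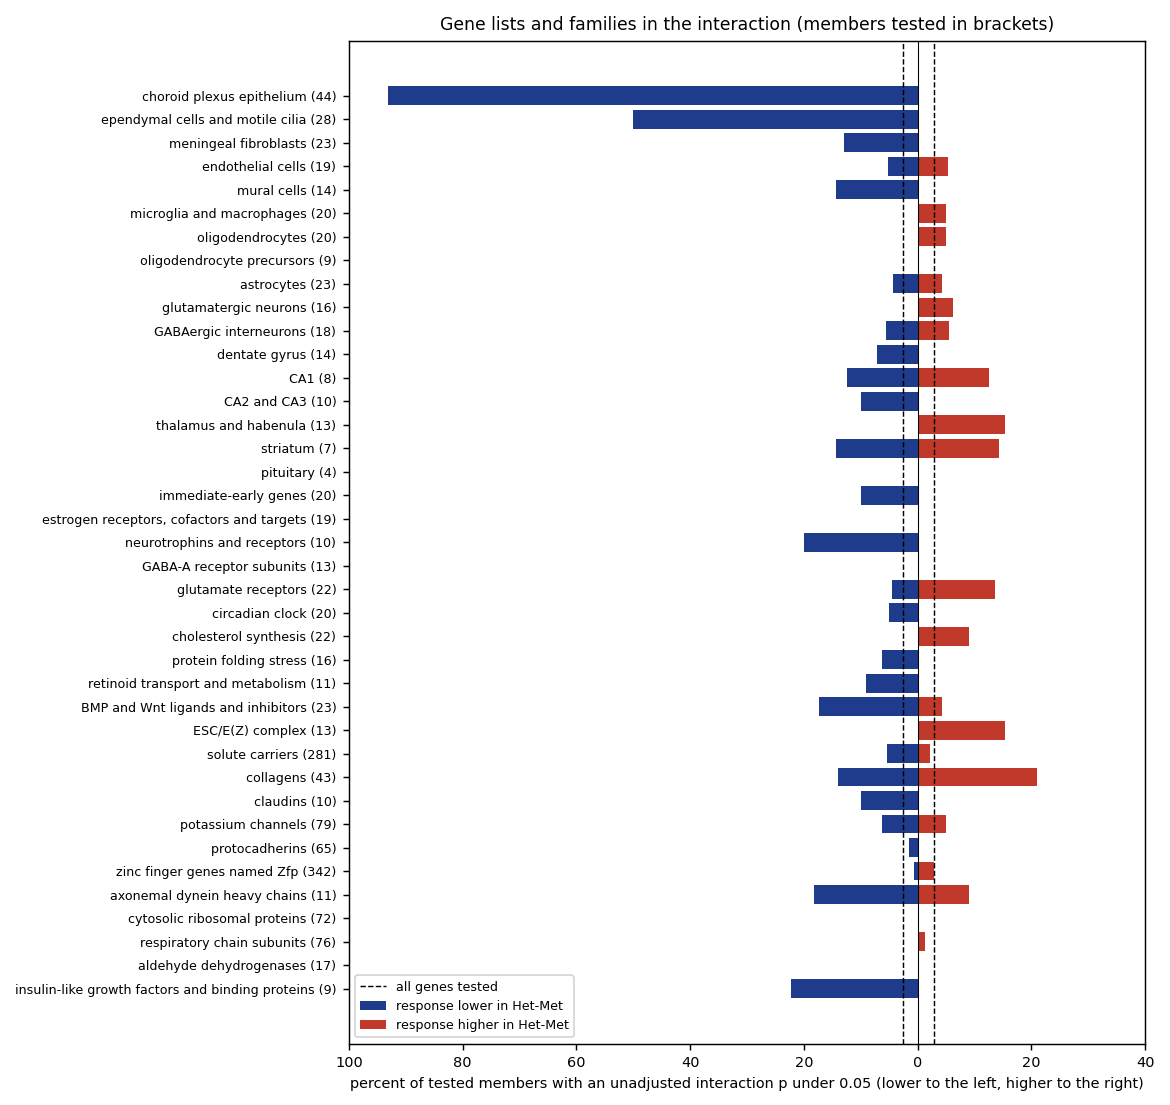
Percent of the tested members of each list or gene family (number tested in brackets) with an unadjusted limma p under 0.05 for the interaction, to the left where the response was lower in Het-Met mice and to the right where it was higher, with dashed lines at the shares of all genes tested (2.62% and 2.8%). The choroid plexus (93.2%) and ependymal (50%) bars reach far past the dashed line on the left.

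No gene of the estrogen or neurotrophin lists was called. Of 19 estrogen receptors, cofactors and targets, 0 had an unadjusted p under 0.05 with limma and 0 were called. Esr1, the estrogen receptor alpha gene, was at 5.04 and 4.16 CPM in vehicle-treated WT, 6.01 and 6.02 in E2-treated WT, 4.98, 5.95 and 4.59 in vehicle-treated Het-Met, and 3.82, 3.23 and 7.49 in E2-treated Het-Met libraries, with an interaction of -0.52 ± 0.35 (95% interval -1.26 to 0.22, limma adjusted p = 1.0). Het-Met E2 replicate 3 was the highest of all 10 libraries for it. Bdnf itself, which carries the knock-in allele and whose level does not check the genotype, was at 39 and 45.2 CPM in vehicle-treated WT, 34.7 and 44 in E2-treated WT, 32.9, 31.7 and 38.4 in vehicle-treated Het-Met, and 33.5, 34.7 and 34.4 in E2-treated Het-Met libraries. The groups overlapped in both genotypes, and the interaction was 0.10 ± 0.16 (95% interval -0.23 to 0.43).

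At an unadjusted p under 0.05, 2.62% of all genes had a lower response and 2.8% a higher one. In each of the following short lists 0 genes were called. Of 10 neurotrophin and receptor genes 2 had a lower response (20%), namely Ntf3, the neurotrophin 3 gene (-0.42 ± 0.19), and Ngfr, the p75 receptor gene (-0.50 ± 0.23). Immediate-early genes, which mark recent neuronal activity, had 2 of 20 lower (10%), Egr2 (-1.27 ± 0.47) and Fosb (-0.55 ± 0.23), with limma adjusted p of 0.711 and 0.837. Glutamate receptors had 1 of 22 lower (4.55%), the AMPA subunit Gria1 (-0.24 ± 0.11), and 3 higher (13.6%), with the presynaptic metabotropic receptors Grm4 at 0.64 ± 0.16 and Grm2 at 0.52 ± 0.15. GABA-A receptor subunits had 0 of 13. The ESC/E(Z) complex, which places repressive methyl marks on histone H3, had 2 of 13 with a higher response (15.4%), its subunits Eed (0.48 ± 0.17) and Mtf2 (0.31 ± 0.13). For Eed, E2 libraries were below vehicle ones in WT and above them in Het-Met mice, with limma adjusted p = 0.67.

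Among gene families, collagens had members in both directions, 6 lower (14%) and 9 higher (20.9%) of 43, against 2.62% and 2.8% of all genes. Col8a1, a collagen of the choroid plexus list, had -2.68 ± 0.53 and Col4a4, a basement membrane chain, -1.92 ± 0.42, while Col24a1, a fibrillar collagen, had 1.66 ± 0.32. Solute carriers had 15 lower (5.34%) and 6 higher (2.14%) of 281, and potassium channels 5 (6.33%) and 4 (5.06%) of 79. The lower counts of both families include choroid plexus genes, such as Slc4a5, Slc39a4, Kcnj13 and Kcne2, and were not taken without them. Insulin-like growth factors and their binding proteins had 2 of 9 lower, Igf2 and Igfbp2, the latter at -1.35 ± 0.29. BMP and Wnt ligands and inhibitors had 4 of 23 lower and 1 higher, with Bmp6, a BMP ligand, at 6.89 and 7.63 CPM in vehicle-treated WT, 11.9 and 12 in E2-treated WT, 8.06, 7.72 and 9 in vehicle-treated Het-Met, and 7, 5.67 and 6.54 in E2-treated Het-Met libraries. E2 and vehicle libraries were apart in both genotypes for Bmp6, with an interaction of -1.03 ± 0.19 (limma adjusted p = 0.0584). Sostdc1 of the choroid plexus list was also among the 4.

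Cholesterol synthesis genes had 2 of 22 with a higher response (9.09%, against 2.8% of all genes), among them Insig1, a sterol sensor (0.31 ± 0.14). Their estimates were above 0 for 21 of 22, with a median of 0.20. Cytosolic ribosomal proteins (0 of 72 at an unadjusted p under 0.05 with limma) and respiratory chain subunits (1 of 76, Atp5l) had medians of 0.00 and -0.03. Zinc finger genes named Zfp had 2 lower (0.585%) and 10 higher (2.92%) of 342, against 2.62% and 2.8% of all genes. The higher share was thus near that of all genes. Protocadherins had 1 lower of 65 (1.54%), and aldehyde dehydrogenases 0 of 17. Circadian clock genes had 1 of 20 lower (5%), Csnk1d, a kinase of clock proteins, at -0.27 ± 0.09.

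Of the 50 highest, 46 were on no list of a cell type or function, and Slc17a6, Cplx3 and Rxfp1 were on at least 1. Eps8l1, an actin regulator, had the highest at 1.82 ± 0.60 (limma adjusted p = 0.553), with 21.7 and 11.5 CPM in vehicle-treated WT, 2.69 and 6.27 in E2-treated WT, 5.74, 7.77 and 18 in vehicle-treated Het-Met, and 12.6, 5.85 and 11.2 in E2-treated Het-Met libraries. The WT treatments were apart, and the vehicle-treated Het-Met libraries alone spanned more than 10 CPM. Tshz3, a zinc finger transcription factor, measured 44.3 and 34.9 CPM in vehicle-treated WT, 26.2 and 25.7 in E2-treated WT, 20.9, 24.1 and 20.5 in vehicle-treated Het-Met, and 27.4, 29.7 and 41.1 in E2-treated Het-Met libraries. Its E2 libraries were below vehicle in WT and above vehicle in Het-Met mice, with an interaction of 1.14 ± 0.21 (limma adjusted p = 0.0584). Bglap3 (1.67 ± 0.31) belongs to a cluster of near-identical genes whose reads cannot be assigned with certainty, and Tnnt2, cardiac troponin T, had 1.55 ± 0.40. Mei1, a meiosis gene, was apart between treatments only in Het-Met mice, at 2.82 and 1.14 CPM in vehicle-treated WT, 1.57 and 1.46 in E2-treated WT, 1.23, 1.11 and 0.974 in vehicle-treated Het-Met, and 2.94, 2.72 and 3.18 in E2-treated Het-Met libraries (interaction 1.31 ± 0.35).

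Among the 818 genes at an unadjusted p under 0.05, the lower and the higher responses differed in size. The 395 lower ones had a median interaction of -0.68 and 105 were beyond 2-fold, and the 423 higher ones had a median of 0.48 with 27 beyond 2-fold. In 383 of the 395 the response estimate was positive in WT and negative in Het-Met mice, and in 417 of the 423 it was negative in WT and positive in Het-Met mice. The WT response was the larger in size for 270 of the 395 and 229 of the 423. Choosing genes by the interaction favours estimates of opposite sign, so that these counts describe the genes and test nothing. Over 5 classes of exon length the median interaction went from -0.02 in the shortest to 0.02 in the longest class.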

How the data were processed

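RNA of pooled ventral hippocampi was sequenced in 10 libraries, and human libraries were not used here. After trimming and filtering, the authors mapped reads to mm10 by TopHat2 and counted them per gene symbol, and they deposited CPM (reads per 1000000 reads on genes). The versions, the annotation and the use of strand are not given in the sources used here, so that reads of overlapping genes may be shared. Every deposited value was a whole multiple of 1 read (100% within a tolerance of 0.01), and whole reads were recovered for edgeR 4.0.16 and DESeq2 1.42.0. The sources name 3 replicates per group, while the data used here hold 2 libraries of each WT group.

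limma 3.58.1 (R 4.3.3) fitted the 4 group means of log2(CPM + 0.5) for genes averaging 0.5 CPM or more, by moderated variances with a trend on level (8.90 prior and 6 residual degrees of freedom), two-sided tests and Benjamini-Hochberg adjustment over all 15081 genes. Calls needed an adjusted p under 0.05 and a fold above 1.3. The fit was tested on simulated data. Gene positions, matched by symbol for 23203 genes directly and 1096 by a synonym, and promoters are from RefSeq for GRCm38.p6, and exon lengths from GENCODE for GRCm38. Figures used python 3.11.15 and matplotlib 3.10.9.

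The members, the 39 lists and families and the tests were chosen with earlier results of these data known, and 2 further lists were added after values had been seen. Lists are described by counts and medians beside all genes, with no set test. Genes named are those called, the 8 largest interactions in each direction with an unadjusted p under 0.01 and a mean of at least 1 CPM, Bdnf and 6 choroid plexus genes, and up to 3 members of the lowest p per list, some of these are not reported here, and any other gene named with a value was chosen after its values were seen. Alternatives were scaling by quantiles or by a median of ratios, pseudocounts of 0.1 and 1, a filter at 2 CPM or none, a replicate block, a choroid plexus covariate, a length trend, edgeR, DESeq2, no fold limit, and each library left out. Replicates differed by more than counting error (chi-square per degree of freedom of 3.29 to 13.5). The SE and intervals given here are from limma and rest on the spread between libraries.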

Additional observations from a re-analysis of the deposited data

Results flagged for a closer look

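The E2 response differed between WT and Het-Met mice, by limma's test of the interaction itself, for 11 of 15081 genes (adjusted p from 0.0333 to 0.0454). It was lower in Het-Met mice for Capn11 (-4.31), Wdr86 (-2.45), Slc2a12 (-2.07), Wdr63 (-1.92), Igf2 (-1.23), Foxj1 (-1.13), Prelp (-0.74) and Fibcd1 (-0.69), and higher for 3, among them Plxdc1 (0.84) and Nrep (0.65), as differences of log2(CPM + 0.5). The summed choroid plexus level was 470 and 1518 CPM in vehicle-treated WT and 3253 and 2494 in E2-treated WT libraries. In Het-Met libraries it was 3859, 1952 and 2489 CPM with vehicle and 2092, 797 and 625 with E2. Its group means rose with E2 in WT and fell in Het-Met mice, as did those of the 8 genes whose response was lower. Capn11 did not follow it among the E2-treated Het-Met libraries, being at 0.391, 1.15 and 3.6 CPM there. In the vehicle-treated WT libraries Capn11 was at 0.416 and 0.942 CPM, in the order of the choroid plexus level. With the mean choroid plexus level as a covariate limma called 0 genes (398 at an unadjusted p under 0.05), while the interactions were -5.82 for Capn11, -0.73 for Fibcd1, -0.62 for Prelp, -1.20 for Wdr63, -1.04 for Wdr86, -0.96 for Slc2a12, -0.69 for Foxj1 and -0.62 for Igf2. Whether it accounts for any of them was not tested.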

How the results depend on the processing

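The 11 calls (8 lower and 3 higher) became 10 and 12 with pseudocounts of 0.1 and 1, 13 with median-of-ratios scaling and with edgeR, and 11 with the length trend removed or without the fold limit. They became 0 without the filter on low values, where limma tested 20118 genes and 1111 had an unadjusted p under 0.05, 5 at a mean of at least 2 CPM, 7 with quantile normalization (6 lower and 1 higher), 38 with DESeq2 (22 lower and 16 higher) and 0 with the choroid plexus covariate. For the changed counts the cause was not tested. Leaving out 1 library gave 0 to 71 calls. Genes at an unadjusted p under 0.05, 818 with all libraries, numbered 398 with the covariate and 554 to 1277 with 1 library left out, the highest without WT vehicle replicate 3. Choroid plexus genes with a lower response numbered 36 to 43 and ependymal ones 12 to 16 with 1 library left out, and ependymal ones 8 with the covariate. The covariate fit was not run for choroid plexus genes, since it is their own mean.

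Interactions that changed sign were those of Bdnf, which was -0.00 without WT vehicle replicate 3 and ranged from -0.07 (without WT E2 replicate 1) to 0.27 with 1 library left out, and, with the covariate, of Drc7 (0.13) and Mfsd2a (0.02). Replicate numbers did not pair the libraries (correlations of deviations from -0.172 to 0.0826), and the fit with a replicate block called 18 genes, all lower, 7 of them among the 11, and 7 choroid plexus genes. With 2 WT libraries per treatment, 1 left out leaves a lone library that is assumed to vary like the rest. At this depth, genes near 0.129 to 0.151 CPM rest on 3 reads.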

Other observations

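Neurons of cortical layers and the subiculum formed a list added after values had been seen. Of its 26 genes tested, 6 had a higher E2 response in Het-Met mice at an unadjusted p under 0.05 (23.1%, against 2.8% of all genes) and 0 a lower one, 24 estimates were above 0, and the median interaction was 0.26. Cplx3, a complexin of deep cortical neurons, had 1.11 ± 0.26, Rxfp1, the relaxin receptor gene, 1.01 ± 0.26 and Cux2, a transcription factor of upper layers, 0.43 ± 0.15. With limma 0 of the 26 were called. The summed level of the list was 1033 to 1045 CPM in vehicle-treated WT, 971 to 984 in E2-treated WT, 843 to 952 in vehicle-treated Het-Met and 947 to 1080 in E2-treated Het-Met libraries.

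Axoneme and ciliogenesis genes that the ependymal list does not hold were the other list added in this way. Of 32 tested, 14 had a lower response at an unadjusted p under 0.05 (43.8%, against 2.62% of all genes) and 0 a higher one, with a median of -0.50. Drc7, a dynein regulatory subunit, had -2.29 ± 0.51, and Spag16, a central apparatus protein, -1.71 ± 0.36. The value of Drc7 ranged from -3.02 to -1.57 with 1 library left out, and it changed sign with the choroid plexus covariate. Rfx3, a transcription factor of ciliated cells, was at 0.01 ± 0.12, and Ccno, a cyclin of multiciliated cells, at -0.05 ± 0.26. Among the 50 lowest interactions, 20 genes were on no list of a cell type or function. The lists are not complete, so a gene on none of them may still belong to the choroid plexus. The 20 included Wfdc2, a secreted protease inhibitor (-2.50), Enpp2, which makes lysophosphatidic acid (-2.45), and Sulf1, an extracellular sulfatase (-1.84), with limma adjusted p of 0.128, 0.0976 and 0.128.

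Pomc, a pituitary hormone precursor, was at 1.62 and 11.3 CPM in vehicle-treated WT, 1.84 and 3.27 in E2-treated WT, 1.38, 1.11 and 1.16 in vehicle-treated Het-Met, and 2.89, 9.22 and 0.854 in E2-treated Het-Met libraries. The highest values were single libraries of vehicle-treated WT and E2-treated Het-Met mice.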
